A study of Mus musculus with 10 samples.

Results

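The genes described here build and maintain the force-bearing lattice of the heart muscle cell. They are 43 genes, listed by symbol, of the Z-disc, the M-band and thick filament, the intermediate filaments, the thin filament ends, the costamere, the dystrophin complex, the muscle ubiquitin ligases and the myosin chaperones. They were found by gene name among 55401 genes, and rows sharing a gene ID were summed. RNA from the left ventricle (LV) of 5 mice with neonatal ascending aorta constriction (nAAC) and 5 sham-operated mice was sequenced at 4 weeks of age, with 1 library per mouse. All mice were wild type (WT), were operated on as newborns and stayed with their mothers, and the 2 groups differed in the operation alone as labelled. The labels do not give the sex of a mouse, and Xist lay between 14.8 and 17.9 FPKM in 4 of 5 nAAC mice, at 0.0232 in the other, at 10.6 in sham mouse 5, at 3.70 in sham mouse 4 and at 0.0168 or less in the other 3 sham mice. FPKM is a level per length, in which the fragments of a gene are scaled by its transcript length and by the depth of the library.

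In a sarcomere, the thin actin filaments are anchored at the Z-disc and the thick myosin filaments are held in register at the M-band. Titin spans from one to the other. Costameres tie the Z-discs at the cell edge to the membrane and the matrix, desmin filaments link neighboring Z-discs, and ubiquitin ligases such as MuRF1 mark muscle proteins for degradation. In pressure overload the muscle cells add sarcomeres, and mutations in many of these genes cause cardiomyopathy or skeletal myopathy.

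Promoter sequences of 4 members are shown because they come from 4 different structures and their windows hold different motifs of muscle or stress-linked factors. Each window runs 5′ to 3′ on the gene's own strand, from 250 bases before an annotated start to 50 after it, from RefSeq on GRCm38.p6. Capitals mark motif matches on either strand.
Synpo2l, chr14:20668305-20668604, minus strand, with a MEF2 site: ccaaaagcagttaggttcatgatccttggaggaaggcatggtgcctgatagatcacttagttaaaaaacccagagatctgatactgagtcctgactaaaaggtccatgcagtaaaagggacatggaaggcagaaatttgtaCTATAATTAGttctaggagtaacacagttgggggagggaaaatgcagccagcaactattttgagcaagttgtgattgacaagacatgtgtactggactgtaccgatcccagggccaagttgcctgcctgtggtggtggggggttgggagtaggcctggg
Mybpc2, chr7:44524620-44524919, minus strand, with the AHR core GCGTG and the MCAT motif CATTCC, both read on the other strand: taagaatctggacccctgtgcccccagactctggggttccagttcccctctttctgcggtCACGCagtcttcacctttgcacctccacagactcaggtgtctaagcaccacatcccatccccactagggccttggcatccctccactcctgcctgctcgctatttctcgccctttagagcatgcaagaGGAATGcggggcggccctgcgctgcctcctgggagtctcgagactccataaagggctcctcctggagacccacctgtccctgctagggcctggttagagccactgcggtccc
Vcl, chr14:20929148-20929447, plus strand, with a CArG box and then CATTCC read on the other strand: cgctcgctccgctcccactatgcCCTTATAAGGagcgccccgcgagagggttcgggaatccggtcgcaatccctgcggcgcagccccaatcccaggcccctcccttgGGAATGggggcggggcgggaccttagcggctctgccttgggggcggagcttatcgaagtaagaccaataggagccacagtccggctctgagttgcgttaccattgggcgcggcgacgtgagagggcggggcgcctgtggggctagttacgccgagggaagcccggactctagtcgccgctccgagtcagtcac
Trim63, chr4:134314870-134315169, plus strand, with the FOXO core TGTTTAC, then the MCAT motif read on the other strand and the E-box CAGCTG: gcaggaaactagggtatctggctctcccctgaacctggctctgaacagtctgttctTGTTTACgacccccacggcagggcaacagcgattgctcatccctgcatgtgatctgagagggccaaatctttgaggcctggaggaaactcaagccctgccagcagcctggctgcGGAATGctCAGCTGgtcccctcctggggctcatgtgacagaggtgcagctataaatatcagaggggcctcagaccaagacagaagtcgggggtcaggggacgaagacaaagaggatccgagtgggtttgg

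The reference held 43 such windows for 34 of the 43 members. In 37 of them the 25 bases from the start were found in a transcript of the gene on the same strand. All 43 windows were kept for the shares below. A MEF2 site stood in 5 of these windows (11.6%), against 0.557% of all 32851 promoters, and the 5 genes were Klhl41, Mybpc3, Myoz2, Synpo2l and Ttn. A CArG box, bound by serum response factor, stood in 7 windows (16.3%) of 6 genes, against 1.63% of all promoters. CATTCC was found in 27.9% of the members' windows and 14.7% of all, and CAGCTG in 27.9% and 16.3%. GCGTG, the core of the sites bound by the aryl hydrocarbon receptor (AHR), was found in 34.9% and 32.4%. TGTTTAC was found in 1 window, that of Trim63, or 2.33%, against 3.65% of all promoters. Some genes have several windows that overlap, and these shares were not tested and describe the letters of the windows only.

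Myosin-binding protein C, several Z-disc genes, desmin and synemin, Nrap and Enah were higher in nAAC mice. Of the 43 members, 42 had a mean FPKM of at least 1 and were tested. A member was called where limma on log2(FPKM + 1) gave an adjusted p below 0.05 over all 11867 genes tested. In nAAC mice 22 members were called higher, against 27.1% of all genes tested, and 1 member, Nebl, was called lower, against 4.6%. With an absolute log2 FC above 1 as well, 9 members were higher and none was lower, against 5.01% and 0.893% of all genes. The values of the groups did not overlap, with nAAC higher, for 17 members, against 18.9% of all genes, and no member had lower non-overlapping values, against 3.46%. The median log2 FC of the members was 0.49 and that of all genes tested was 0.22.

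All genes together lay 0.22 higher on the log2 scale in nAAC mice, and a scaling that sets each library to a common median ratio moved this to -0.001. Under it 15 members were called higher and 5 lower, against 13.2% and 12.1% of all genes. The 5 lower members were Nebl, Sgca, Trim63, Fbxo32 and Tmod1. In a bulk tissue, a change in the number of cells of a type and a change in the RNA per cell cannot be told apart.

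**Figure D1:**
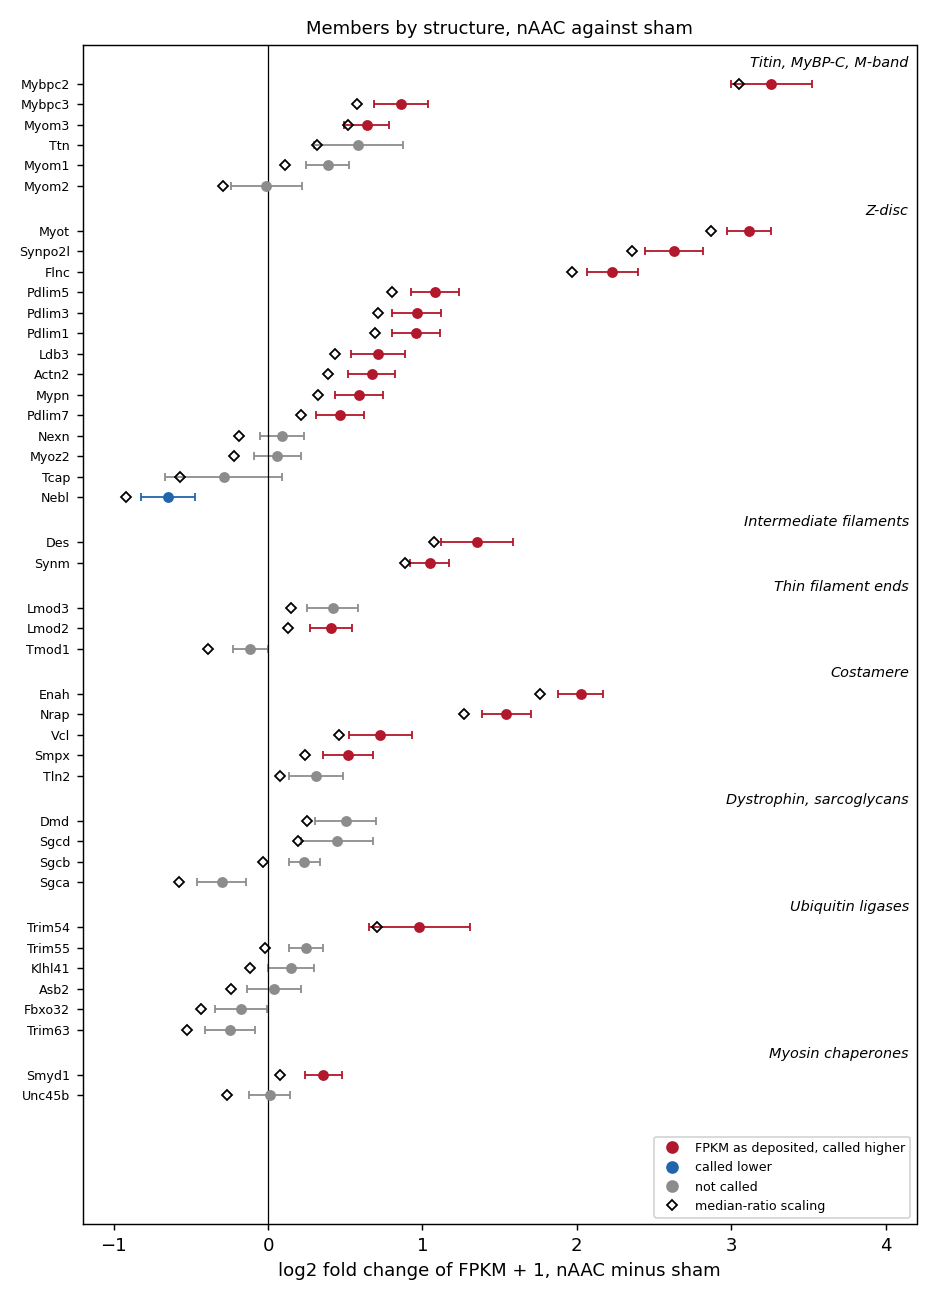
Log2 FC of FPKM + 1, nAAC minus sham, for each of the 42 members tested, grouped by structure, with bars of 1 SE from limma on 5 mice per group. Filled circles are FPKM as deposited, open diamonds the median-ratio scaling, and red, blue and grey mark members called higher, called lower and not called. Mybpc2 and Myot lie above 3, and each diamond lies to the left of its circle.

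Among the sarcomere lattice genes, the M-band and thick filament group had 3 of 6 members called higher, against 27.1% of all genes. Mybpc2, the fast skeletal form of myosin-binding protein C (chr7:44501699-44524656), had the largest log2 FC of any member. Its FPKM was 10.3, 23.4, 22.6, 31.4 and 24.3 in nAAC mice 1 to 5. In sham mice 1 to 5 it was 1.36, 1.10, 1.03, 0.768 and 2.74. The lowest nAAC mouse, mouse 1, lay above the highest sham mouse, mouse 5, and the log2 FC was 3.26 ± 0.26 (SE, n = 5 per group, limma adjusted p = 1.9e-06). Mybpc3, the cardiac form (chr2:91118144-91136516), was at 703 ± 57.5 (SD, n = 5) in nAAC mice and 396 ± 97.9 in sham mice, and was called higher by 0.86. Myom3, an M-band myomesin, was called higher by 0.64, from a level of 0.586 to 1.43 FPKM. Its sham mean lay below the filter of 1, so it entered the test through its nAAC values. Myom1, Myom2 and Ttn were not called, with log2 FC of 0.39 (adjusted p = 0.050), -0.01 and 0.58 (adjusted p = 0.14, SE 0.29). The Ttn value depended on the fit. Ttn was called higher with Xist as a covariate (1.02, limma adjusted p = 0.029), with TPM (0.76, adjusted p = 0.040), with the replicate number as a block (adjusted p = 0.022) and without sham mouse 2 (0.79, adjusted p = 0.040), and it was 0.34 without sham mouse 4 and 0.01 with trends in GC content and length removed. Ttn was 24.4, 32.4, 29.0, 16.9 and 20.4 FPKM in nAAC mice and 20.5, 28.7, 16.4, 7.39 and 12.8 in sham mice, so sham mouse 4 held the lowest value. Myom1 shares its locus with Myl12a on the opposite strand, at 498 FPKM in nAAC and 208 in sham mice, and whether the counting used strand is not given in the sources used here.

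The share that the fast form took of the 2 myosin-binding proteins was compared within each mouse. The 11 pairs compared in this way were chosen with earlier results of these data known. The adjusted p values do not account for that choice. Mybpc2 FPKM was 0.0300 of Mybpc3 FPKM in nAAC mice and 0.00327 in sham mice. The log2 ratio was -6.12, -4.88, -5.00, -4.62 and -4.66 in nAAC mice 1 to 5 and -8.24, -8.13, -8.18, -9.09 and -7.62 in sham mice. The 5 nAAC values lay above the 5 sham values, and nAAC mouse 1 was the lowest of its group (difference 3.20, two-sided exact permutation p = 0.0079, the smallest p of 5 against 5 samples, adjusted p = 0.029 over 11 pairs). Of 10 skeletal muscle markers, 0 passed the filter. All 10 averaged below 1 FPKM in nAAC mice, and 9 did in sham mice. Tnni2 was lower in nAAC mice, at 0.160 FPKM against 1.31 in sham mice, without overlap. Tnnt3 was higher in nAAC mice, at 0.391 against 0.0667 in sham mice, also without overlap. The summed level of 10 skeletal muscle markers was 0.737 to 1.96 FPKM in nAAC mice and 1.39 to 2.80 in sham mice, with Myh4 and Tnnc2 at 0. Myom3 relative to Myom1 rose from 0.00326 to 0.00691 (difference 1.08 in log2, exact permutation adjusted p = 0.035, 4 of 5 nAAC mice above all sham mice), whereas the Myom2 to Myom1 ratio did not pass (difference -0.40, exact permutation adjusted p = 0.10, 3 of 5 nAAC mice below all sham mice).

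The Z-disc held 14 members tested, of which 10 were called higher and 1 lower, against 27.1% and 4.6% of all genes. A log2 FC of 1 was passed by 4, against 5.01% of all genes. Median-ratio scaling gave 8 higher and 1 lower, against 13.2% and 12.1%. Xist as a covariate gave 6 higher and 0 lower, against 13.4% and 3.29%. Myot is myotilin, a Z-disc protein that binds filamin and actinin and is altered in myofibrillar myopathy (chr18:44334074-44355724). Its FPKM was 41.0, 48.1, 37.4, 31.3 and 35.0 in nAAC mice 1 to 5 and 3.19, 2.86, 3.20, 3.84 and 4.77 in sham mice 1 to 5. The lowest nAAC mouse, at 31.3, was above the highest sham mouse, at 4.77. The log2 FC was 3.11 ± 0.14 (SE, limma adjusted p = 2.5e-08), with the lowest adjusted p of any member. Synpo2l, a synaptopodin-like actin-binding protein (chr14:20658946-20668354), was 129.8, 124.2, 159.1, 91.4 and 104.5 in nAAC mice and 18.9, 17.4, 16.2, 14.7 and 27.6 in sham mice. The log2 FC was 2.63 ± 0.19 (SE, limma adjusted p = 6.2e-07), without overlap. Flnc, filamin C, crosslinks actin at the Z-disc (chr6:29433256-29461883) and was 56.8, 51.7, 51.1, 42.4 and 43.1 in nAAC mice and 10.9, 8.30, 8.25, 7.51 and 14.3 in sham mice. Flnc rose by 2.23 ± 0.17 (SE, limma adjusted p = 9.5e-07), also without overlap.

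The other Z-disc members had smaller log2 FC. Actn2, the sarcomeric alpha-actinin that crosslinks thin filaments, was called higher by 0.67, at 499 ± 29.0 FPKM in nAAC and 317 ± 62.0 in sham mice (SD, n = 5). Flnc relative to Actn2 went from 0.0306 to 0.0978 as a ratio of FPKM, and its log2 ratio did not overlap between groups (difference 1.68, exact permutation p = 0.0079, adjusted p = 0.029 over 11 pairs). Ldb3, the PDZ-LIM protein Cypher, was called higher by 0.71, and Mypn, myopalladin, by 0.59. Of the PDZ-LIM family, which anchors kinases and other partners to actinin, Pdlim5 (1.08), Pdlim3 (0.96), Pdlim1 (0.96) and Pdlim7 (0.47) were called higher. Pdlim5 was 479.7, 459.4, 351.1, 338.9 and 356.0 FPKM in nAAC mice and 149.0, 196.1, 188.9, 219.3 and 177.5 in sham mice, without overlap. The Pdlim3 to Pdlim5 ratio did not pass the test (difference -0.02, exact permutation adjusted p = 0.94). Tcap, telethonin, Myoz2, calsarcin-1, and Nexn, nexilin, were not called, with log2 FC of -0.29, 0.06 and 0.09. Tcap was 2122 FPKM in sham mouse 4 and 1222 in sham mouse 5, against 479 to 523 in the other 3 sham mice and 480 to 832 in nAAC mice. Myoz1, the skeletal calsarcin, was at 0.381 FPKM in nAAC and 0.226 in sham mice on average, below the filter.

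Nebl, nebulette, was the member called lower, and it is the cardiac relative of nebulin, which binds the thin filament near the Z-disc (chr2:17343909-17731464). Its FPKM was 32.0, 25.9, 23.8, 26.0 and 27.5 in nAAC mice 1 to 5. In sham mice 1 to 5 it was 44.0, 55.2, 49.8, 27.0 and 43.3. Sham mouse 4 fell within the nAAC range and the other 4 sham mice lay above it (log2 FC -0.65 ± 0.17, SE, limma adjusted p = 0.013). With Xist as a covariate the log2 FC of Nebl was -0.55 and was not called (limma adjusted p = 0.10), and without sham mouse 4 it was -0.81.

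Intermediate filaments were represented by 2 members and both were called higher, against 27.1% of all genes. Their groups did not overlap, against 18.9% of all genes with nAAC higher. Des, desmin (chr1:75360329-75368579), was 1016, 854, 1093, 807 and 715 FPKM in nAAC mice and 339, 232, 257, 453 and 541 in sham mice. Its log2 FC was 1.35 ± 0.23 (SE, limma adjusted p = 8.2e-04). Synm, synemin, joins desmin filaments to other structures and was at 2.40, 2.97, 3.21, 2.90 and 2.24 FPKM in nAAC mice and 0.594, 0.806, 0.653, 0.709 and 1.36 in sham mice, a log2 FC of 1.05 ± 0.13 (SE, limma adjusted p = 5.8e-05). Synm averaged 0.82 FPKM in sham mice, below the filter of 1, and entered the test through its nAAC values. The Synm to Des ratio did not pass (difference 0.43, exact permutation adjusted p = 0.16). Synm overlaps Ttc23 on the opposite strand, at 4.13 FPKM in nAAC and 3.63 in sham mice.

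Of the 3 thin filament end genes, Lmod2, the cardiac leiomodin that elongates filaments, was called higher by 0.41 (limma adjusted p = 0.036). It was 225.3, 251.4, 251.0, 231.1 and 212.1 FPKM in nAAC mice and 164, 163, 166, 167 and 228 in sham mice, so the overlap came from sham mouse 5. Lmod3 had a log2 FC of 0.42 (adjusted p = 0.073) and Tmod1, the capping tropomodulin, -0.12, and neither was called. The Lmod3 to Lmod2 ratio did not pass the test (difference 0.02, exact permutation adjusted p = 0.94).

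**Figure D2:**
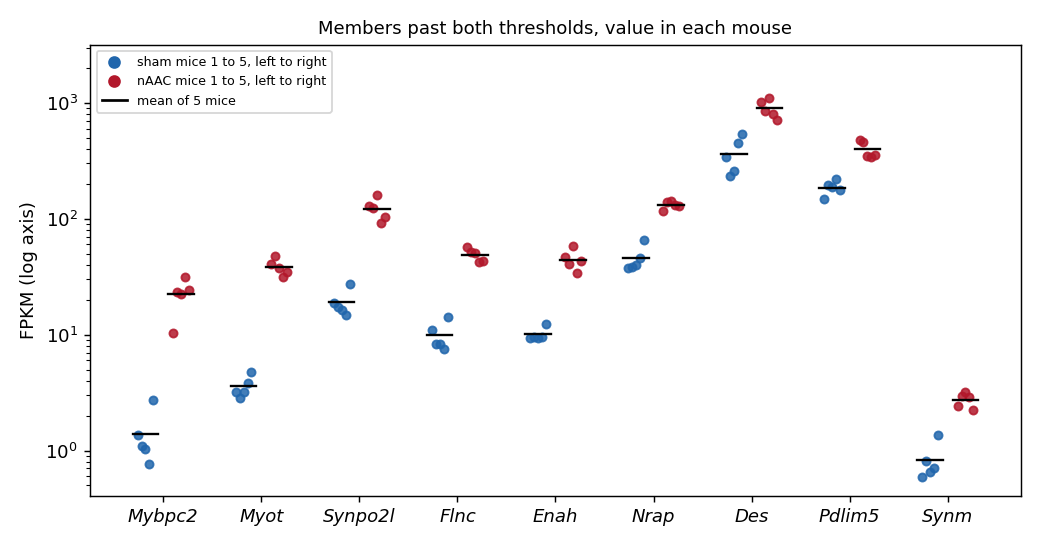
FPKM on a log axis of the 9 members with an adjusted p below 0.05 and a log2 FC above 1, with a point for each of 5 sham (blue) and 5 nAAC (red) mice and a black line at each mean. The groups do not overlap for any of these 9 genes, and Mybpc2 and Synm sit at the lowest sham levels.

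At the costamere, 4 of 5 members were called higher, against 27.1% of all genes. Under median-ratio scaling or with Xist as a covariate 2 were, Enah and Nrap, against 13.2% and 13.4% of all genes. Enah, the actin polymerase Mena (chr1:181896384-182019990), was 46.8, 40.7, 58.0, 34.1 and 42.8 FPKM in nAAC mice and 9.42, 9.62, 9.43, 9.51 and 12.4 in sham mice. Its log2 FC was 2.02 ± 0.14 (SE, limma adjusted p = 6.8e-07), without overlap. Nrap, a nebulin-related anchoring protein of the intercalated disc and of growing myofibrils (chr19:56320035-56390037), was 117, 140.0, 143, 132 and 129 FPKM in nAAC mice and 38.0, 38.7, 39.6, 45.9 and 66.1 in sham mice. Its log2 FC was 1.54 ± 0.16 (SE, limma adjusted p = 1.2e-05). Vcl, vinculin, links actin to integrin and cadherin sites and was called higher by 0.73 (limma adjusted p = 0.017), with 27.6, 21.6, 20.4, 23.6 and 21.1 FPKM in nAAC mice and 14.7, 15.0, 13.4, 7.13 and 19.5 in sham mice. Smpx, a small stretch-responsive muscle protein, was called higher by 0.52 (limma adjusted p = 0.028). Tln2, the talin of muscle costameres, was not called at 0.31, or 0.13 without sham mouse 4, and its ratio to Vcl was lower in nAAC mice, at 0.273 against 0.358 (difference -0.39 in log2, exact permutation adjusted p = 0.035, 4 of 5 nAAC mice below all sham mice). Vcl overlaps Ap3m1 on the opposite strand, which was at 10.9 FPKM in nAAC and 10.7 in sham mice.

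None of the 4 dystrophin complex members was called, where 27.1% of all genes were called higher and 4.6% lower. Dmd had a log2 FC of 0.50 (adjusted p = 0.070), Sgcd 0.45 (0.16), Sgcb 0.23 (0.092) and Sgca -0.30 (0.17), in limma. Without sham mouse 4, Dmd was 0.30 and Sgcd 0.21. Dmd was called higher with TPM (0.69, limma adjusted p = 0.020), with trends in GC content and length removed (0.31, adjusted p = 0.014) and without sham mouse 2 (0.61, adjusted p = 0.040). Dmd, which links actin to the membrane complex, was 11.9, 10.2, 8.55, 10.8 and 9.36 FPKM in nAAC mice and 7.61, 9.45, 7.94, 3.42 and 7.29 in sham mice. Sgcb had nAAC values from 24.4 to 26.6 above sham values from 20.2 to 24.2, without overlap, but reached -0.04 under median-ratio scaling. Sgcb was called higher with TPM (0.40, limma adjusted p = 0.015), with no filter (0.23, adjusted p = 0.030) and without sham mouse 4 (0.27, adjusted p = 0.032). Sgca was called lower under median-ratio scaling (-0.57, limma adjusted p = 0.0045) and with trends in GC content and length removed (-0.67, adjusted p = 1.8e-05).

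The muscle ubiquitin ligases had 1 of 6 members called higher and none called lower, against 27.1% and 4.6% of all genes. Median-ratio scaling gave 0 higher and 2 lower, against 13.2% and 12.1%. Whether the 6 ligases differ from all genes in these counts was not tested. Trim63, or MuRF1, which ubiquitinates thick filament proteins (chr4:134315120-134329629), was 45.8, 66.3, 55.4, 60.2 and 53.0 FPKM in nAAC mice and 56.1, 52.7, 64.8, 90.4 and 74.2 in sham mice. Its groups overlapped, with a log2 FC of -0.25 ± 0.16 (SE, limma adjusted p = 0.26), and it was called lower under median-ratio scaling and with trends in GC content and length removed. Trim54, or MuRF3, which binds microtubules and the sarcomere (chr5:31116712-31137630), was 69.7, 100.3, 103, 93.1 and 76.2 FPKM in nAAC mice and 35.3, 23.0, 29.5, 95.8 and 69.3 in sham mice. Sham mice 4 and 5 lay among the nAAC mice and the other 3 sham mice lay below them (log2 FC 0.98 ± 0.33, SE, limma adjusted p = 0.036). Trim55, or MuRF2, was 22.6, 25.9, 23.9, 20.5 and 20.7 FPKM in nAAC mice and 19.0, 20.7, 19.8, 18.9 and 16.5 in sham mice (log2 FC 0.25, adjusted p = 0.11, limma), and -0.02 under median-ratio scaling.

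Fbxo32, the atrophy ligase atrogin-1 (chr15:58175879-58214932), was 9.88, 11.4, 9.69, 15.1 and 12.1 FPKM in nAAC mice and 11.0, 12.3, 16.7, 9.96 and 17.0 in sham mice, with a log2 FC of -0.18 (adjusted p = 0.44, limma). Asb2, a substrate receptor of cullin ligases that degrades filamins, was 85.9, 119.7, 128.3, 110.4 and 104.9 FPKM in nAAC mice and 115, 79.4, 84.5, 133.2 and 129.5 in sham mice. Its log2 FC was 0.04, and -0.24 under median-ratio scaling. Klhl41, which is involved in sarcomere stability, was 29.7, 20.1, 16.4, 20.0 and 19.4 FPKM in nAAC mice and 16.0, 18.9, 17.7, 20.7 and 20.1 in sham mice, with a log2 FC of 0.15 and -0.12 under median-ratio scaling. The Trim63 promoter printed above is the member window with the FOXO core, and Fbxo32 had no window in the reference.

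Relative to Trim63 in the same mouse, Trim54 was 1.57 in nAAC mice and 0.659 in sham mice. Its log2 ratio was 0.61, 0.60, 0.89, 0.63 and 0.53 in nAAC mice and -0.67, -1.19, -1.14, 0.08 and -0.10 in sham mice, so the 5 nAAC values lay above the 5 sham values (difference 1.25, exact permutation p = 0.0079, adjusted p = 0.029 over 11 pairs). A ratio of 2 genes of one library does not depend on how the libraries were scaled. The Trim55 to Trim63 ratio missed the threshold (difference 0.51, exact permutation adjusted p = 0.058) and the Fbxo32 to Trim63 ratio did not pass the test (difference 0.06, exact permutation adjusted p = 0.94).

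**Figure D3:**
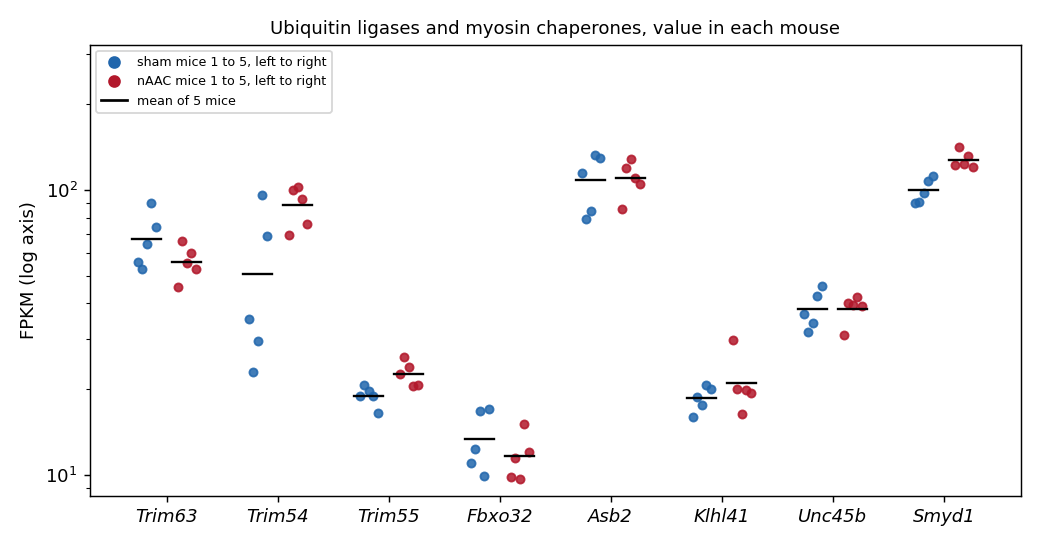
FPKM on a log axis of the 6 ubiquitin ligases and 2 myosin chaperones, with a point for each of 5 sham (blue) and 5 nAAC (red) mice and a black line at each mean. Sham mice 4 and 5 of Trim54, at 95.8 and 69.3, stand among the nAAC mice, and the Smyd1 groups do not overlap.

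Of the 2 chaperones that help fold and assemble myosin, Smyd1, a methyltransferase with a myosin-folding role, was called higher by 0.36 (limma adjusted p = 0.037). It was 122, 142, 123, 132 and 121 FPKM in nAAC mice and 90.3, 90.8, 97.9, 108 and 112 in sham mice, without overlap, but was 0.08 and not called under median-ratio scaling. Unc45b was at 38.4 ± 4.21 FPKM in nAAC and 38.3 ± 5.92 in sham mice (SD, n = 5). Smyd1 overlaps Krcc1 on the opposite strand, at 29.6 FPKM in nAAC and 23.7 in sham mice.

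Among the 22 members called higher, 12 were also called in each of 8 other ways of processing and each of 10 fits without 1 mouse, namely Mybpc3, Mybpc2, Myot, Pdlim1, Pdlim3, Pdlim5, Flnc, Synpo2l, Des, Synm, Nrap and Enah. The other 10 lost the call in at least 1 of these. They were Trim54, Vcl, Ldb3, Actn2, Myom3, Mypn, Smpx, Pdlim7, Lmod2 and Smyd1. Leaving out 1 mouse ended the call for 5 of them. For Lmod2 and Smyd1 this was any nAAC mouse or sham mouse 1, 2 or 3, and for Trim54 and Pdlim7 nAAC mouse 2, 3, 4 or 5 or sham mouse 1, 2 or 3. For Smpx it was nAAC mouse 1, 2 or 3 or sham mouse 1, 3 or 5. Without these mice Trim54 lay between 0.76 and 1.03 and Pdlim7 between 0.35 and 0.49. With Xist as a covariate 13 members were called higher and 0 lower, against 13.4% and 3.29% of all genes. With trends in GC content and transcript length removed, 17 were called higher and 8 lower, against 14.2% and 15.9% of all genes. The 8 were Nebl, Tcap, Sgca, Trim63, Asb2, Tmod1, Fbxo32 and Unc45b.

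Sham mice 4 and 5 stood apart from the other sham mice over these genes. Mitochondrial genes made up 33.7% and 38.3% of their TPM, within the 32.8% to 39.9% of the nAAC mice, against 46.5% to 49.8% in sham mice 1 to 3, and the part of this in the results was not tested. The highest sham value was in sham mouse 5 for 16 of the 22 members called higher and in sham mouse 4 for the other 6. Sham mouse 4 lay lower in long transcripts, with a median deviation of -0.61 in log2 from the other sham mice over genes with transcripts above 10000 bases. Over the members it lay -0.33 from the other sham mice for the 21 longer members and 0.31 for the 21 shorter ones, divided at 3698 bases, and its Spearman correlation with length across the 42 members was -0.70, against -0.38 to 0.47 in the other 9 libraries. This is a description across genes of single libraries. Without sham mouse 4, 23 members were called higher, against 3930 of all 11867 genes tested. Ttn was then not called. Nebl was again called lower, as were 621 of all genes. Leaving out sham mice 4 and 5 gave 25 members higher and 1 lower, against 43.3% and 5.31% of all genes, with Trim54 at 1.57 and Ttn at 0.16.

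**Figure D4:**
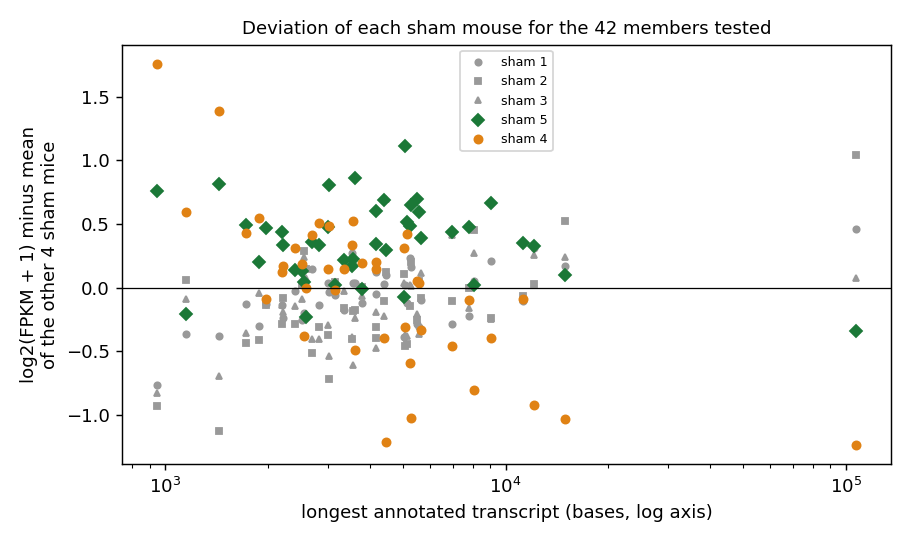
Deviation of log2(FPKM + 1) of each sham mouse, taken from the average of the 4 remaining sham mice, for the 42 members tested, against the length of the longest annotated transcript (bases, log axis). Sham mouse 4 (orange) lies above 1 for Tcap and Trim54 and below -1 for Ttn, Dmd, Vcl and Sgcd, and most points of sham mouse 5 (green) lie above 0.

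The deposited tables give a mean read coverage beside FPKM, and the ratio of FPKM to coverage depends on which transcripts of a gene carry the reads. Of genes with 1 annotated transcript, 98.8% to 98.9% shared a common ratio within a library, within 0.001 in log2, against 1.51% to 1.78% of genes with several transcripts. The log2 ratio above that common value was tested with limma in 9735 genes, of which 33 were members, and a gene was called at an adjusted p below 0.05 and a difference of at least 0.2. The only member called was Pdlim7, against 0.0924% of all genes, and 9 genes were called in all. It ranked 1 by p among them all. Its log2 ratio was 1.19, 1.20, 1.15, 1.20 and 1.22 in nAAC mice and 1.60, 1.55, 1.68, 1.60 and 1.59 in sham mice, without overlap (difference -0.41 ± 0.024, SE, limma adjusted p = 2.8e-04). The annotation gives Pdlim7 (chr13:55495795-55513676) 11 transcripts. Its log2 FC was 0.47 by FPKM and 0.74 by depth-scaled coverage.

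Enah, with 16 annotated transcripts, had log2 ratios of 2.09, 1.97, 2.08, 2.02 and 2.03 in nAAC mice and 1.79, 1.57, 1.62, 1.96 and 1.89 in sham mice. The groups did not overlap but the difference of 0.27 was not called (limma adjusted p = 0.34). Its log2 FC was 2.02 by FPKM and 1.57 by coverage, so a higher level was found by both. Ttn differed by 0.20 (limma adjusted p = 0.49), and the ratio of the other 30 members differed by less than 0.1. Which transcripts changed cannot be read from a ratio.

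**Figure D5:**
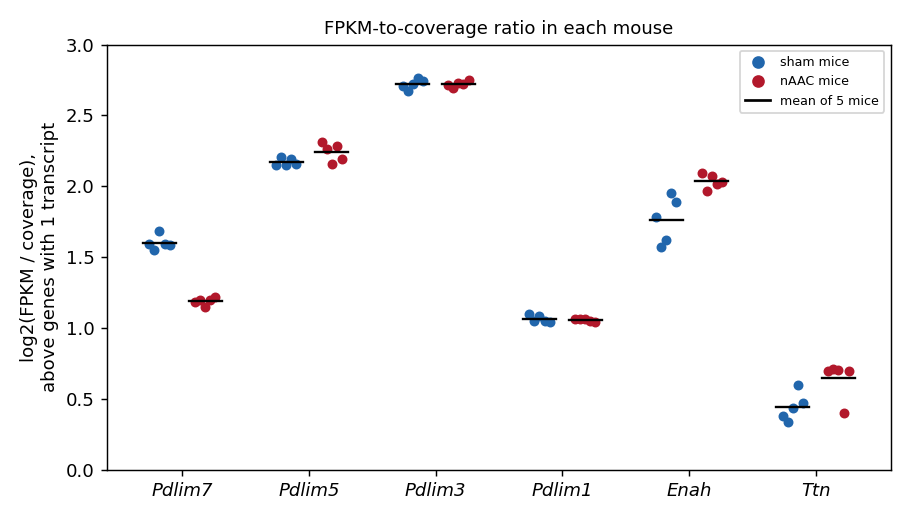
Log2 ratio of FPKM to coverage above that of genes with 1 transcript, for the 4 PDZ-LIM genes of the member list named Pdlim and for Enah and Ttn, with a point per mouse and a black line at each mean of 5 mice. Pdlim7 separates with nAAC mice near 1.19 and sham mice near 1.60, and the Pdlim1 and Pdlim3 groups lie on each other.

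Of 63 related genes outside the members, 56 were tested. In the list of other Z-disc and sarcomere genes, 9 of 18 were called higher and 2 lower. The non-muscle actinin Actn1 (1.43), the intermediate filament Vim (1.18) and the filamin Flna (1.11) had the largest increases. Tmod4 fell by 1.43 and Pdlim4 fell by 1.33, a skeletal tropomodulin and another PDZ-LIM gene. In the costamere list 10 of 19 were called higher and 0 lower, led by Tln1 (1.06), the caveola protein Cavin4 (1.02) and Parvb (0.85). In the proteostasis list 8 of 19 were called higher and 4 lower. Klhl40, a partner of nebulin and Lmod3 (1.60), the chaperone Hsp90aa1 (1.47) and Trim72 (1.08) were highest. The ligase subunits Asb15, Asb14 and Fbxo31 had log2 FC of -1.22, -1.11 and -0.62. Over the 56 genes 27 were called higher and 6 lower, against 27.1% and 4.6% of all genes, and 15 higher and 9 lower under median-ratio scaling, against 13.2% and 12.1%. In the costamere list median-ratio scaling gave 3 higher and 1 lower. Xist as a covariate gave 5 higher and 0 lower there, against 13.4% and 3.29% of all genes. The median log2 FC over the 56 was 0.40, against 0.22 for all genes.

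Markers of smooth muscle and fibroblasts moved as well, and those of endothelial cells and leukocytes less so. Of 5 endothelial markers 1, Kdr, was called higher, and of 5 leukocyte markers 0, against 27.1% of all genes. Their median log2 FC was 0.26 and 0.31, against 0.22 for all genes. The summed level of 5 smooth muscle markers was 87.4 to 182 FPKM in nAAC mice and 72.2 to 97.6 in sham mice, with 4 of 5 called higher, and Cnn1 and Myh11, at 0.881 and 4.28 FPKM in sham mice, were the lowest. Cnn1 entered the test through its nAAC values. The sum of 6 fibroblast markers was 443 to 745 in nAAC and 351 to 375 in sham mice, with 5 of 6 called higher. Under median-ratio scaling 3 of 5 smooth muscle and 3 of 6 fibroblast markers were called higher, against 13.2% of all genes. With Xist as a covariate these were 4 of 5 and 3 of 6, against 13.4%. Actn1, Vim, Flna, Tln1, Synm and Enah are also made by smooth muscle cells or fibroblasts, and the part of these cells in the results was not tested. The sum of 9 other cardiomyocyte markers, which check the labelled heart tissue, was 16426 to 25870 in nAAC and 18359 to 33262 in sham mice, with Actc1 called higher (log2 FC 0.60) and Tnni3 (-0.82) and Pln (-0.86) called lower in limma. Atrial markers summed to 6321 to 11730 in nAAC and 94.4 to 199 in sham mice, of which Nppa, the hormone ANP, made up most, and the other 3 tested atrial markers Myl7, Myl4 and Sln were not called. These 3 were highest in nAAC mice 2 and 3. Myl7 was 1.10, 54.0, 79.8, 11.9 and 0.654 FPKM in nAAC mice 1 to 5 and 22.3, 3.89, 3.65, 1.16 and 7.33 in sham mice 1 to 5. Myl4 was 71.1 and 127.7 FPKM in nAAC mice 2 and 3 and 1.34 to 14.3 in the other 3. Sln was 9.23 and 19.4 FPKM in those mice and 0 to 1.98 in the other 3. Leaving out nAAC mice 2 and 3 gave 15 members higher and 0 lower, against 20% and 3.04% of all genes, and the 15 held the 12 members called in all of the fits above. Nebl was then -0.57 (limma adjusted p = 0.082).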

How the data were processed

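RNA from the LV of 5 nAAC and 5 sham mice was extracted with Trizol and sequenced by the authors, with 1 library per mouse. For each mouse the authors deposited a gene table in which 3 columns were measured, namely coverage, the mean read depth over the bases of a gene (a signal), FPKM, which the authors normalized for length and depth, and TPM, deposited as transcripts scaled to a constant total per library. The submitters' processing notes name the build mm10, and gene coordinates were the same as in GENCODE M21 (GRCm38) for 99.41% of genes. The aligner, quantifier and use of strand are not given in the sources used here. The layout of the tables is that of StringTie, and read counts cannot be recovered from it, so counting error could not be given and depth is unknown as a number of reads. Summed FPKM was 577140 to 727602 per library.

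Rows sharing a gene ID were summed. limma 3.58.1 in R 4.3.3 was applied to log2(FPKM + 1) with eBayes (trend = TRUE), over the 11867 genes whose FPKM averaged 1 or more. Because of the added 1, the log2 FC of a weakly expressed gene is smaller than its true change. Adjustment followed Benjamini and Hochberg. Ratios of 11 gene pairs within a mouse were compared by two-sided exact permutation tests (the smallest p is 0.0079), and the pair of Myoz1 and Myoz2 was left out because Myoz1 was 0 in 1 library. Python 3.11.15, pandas 2.3.3, numpy 2.4.6, SciPy 1.17.1 and matplotlib 3.10.9 were used, and the fit was checked on simulated data.

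The members, related lists, marker lists and pairs were chosen with earlier results of these data known. The text accounts for all members and gives values per mouse for the 3 largest increases, for the decrease, for the ligases and for 1 or more genes of each structure, and in each related list for the 3 largest called changes in each direction. Other members given per mouse, and the Pdlim7, Enah and Ttn ratios, were chosen after their values were seen, as was the test of FPKM over coverage. Mice were taken as replicates from the labels. Mice with the same number deviated with correlations between -0.316 and 0.192, so the number was not taken as a pairing. Alternatives were median-ratio scaling, FPKM rescaled without mitochondrial genes, TPM, a pseudocount of 0.1 (of 1 for the pairs), no filter, the replicate block, Xist as a covariate, removal of GC and length trends by loess, and leaving out each mouse. Coverage in place of FPKM was added for Pdlim7 and Enah after seeing the data, as were fits without nAAC mice 2 and 3 and without sham mice 4 and 5. Motifs were searched on both strands in RefSeq promoters of GRCm38.p6, the MEF2 site and CArG box by their usual consensus. Myot, Tcap, Tln2, Nexn, Fbxo32, Myom2, Lmod3, Trim55 and Myoz1 had no window there. Other experiments of the study were not analysed here.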

Additional observations from a re-analysis of the deposited data

Results flagged for a closer look

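In 9 of 112 groups of 5 values examined, 1 mouse stood apart from the other 4 by Dixon's gap, the distance to the nearest other value over the range, above the critical value of 0.71. Chance gives about 5.6 such groups. Sham mouse 5 was the highest sham mouse for Lmod2 (gap 0.92) and Enah (0.928). Sham mouse 4 was the lowest sham mouse for Tln2 (0.765), Dmd (0.73) and the Flnc to Actn2 ratio (0.743). The members with transcripts above 10000 bases were Ttn, Dmd, Tln2 and Enah. In these, sham mouse 4 lay -1.24, -1.03, -0.92 and -0.085 in log2 from the other sham mice. The lowest nAAC mouse was mouse 1 for Lmod3 (0.717), Unc45b (0.776) and the Mybpc2 to Mybpc3 ratio (0.742), and nAAC mouse 3 was the highest of its group for the Trim54 to Trim63 ratio (0.718). In the Enah, Mybpc2 to Mybpc3, Flnc to Actn2 and Trim54 to Trim63 comparisons the groups did not overlap with these mice included.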

How the results depend on the processing

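Members called higher numbered 22 and ranged from 17 to 23 when a mouse was left out. Over all genes, calls higher in the same fits ranged from 2392 to 3930. Members called higher fell to 13 with Xist as a covariate and rose to 28 with TPM. Calls higher over all genes rose from 3211 to 4973 with TPM. Members called lower were 5 under median-ratio scaling, 8 with GC and length trends removed and 0 with Xist as a covariate. The 9 members with a log2 FC above 1 ranged from 9 to 12 without 1 mouse, and were 6 with trends removed, 7 under median-ratio scaling, 12 with a pseudocount of 0.1 and 13 with TPM. Over all genes, those called higher with a log2 FC above 1 numbered 595 by FPKM as deposited and 546 to 683 without 1 mouse. In the order of the other settings above they were 318, 371, 952 and 979. Leaving out nAAC mice 2 and 3 gave 15 higher, 0 lower and 8 above a log2 FC of 1, and leaving out sham mice 4 and 5 gave 25, 1 and 13. Over all genes 622 and 898 were then called higher with a log2 FC above 1. The replicate number as a block gave 19 higher, 1 lower and 9 above a log2 FC of 1, and 3426 calls over all genes against 3757, and no mouse correlated best with its own number. All-gene calls were 1983 with Xist as a covariate and 5768 without sham mice 4 and 5. Calls split 3211 higher and 546 lower by FPKM and 1563 and 1431 by median ratio. The members whose direction changed were not called by FPKM as deposited. Under median-ratio scaling these were Myoz2 (-0.22), Nexn (-0.19), Sgcb (-0.04), Trim55 (-0.02), Asb2 (-0.24), Klhl41 (-0.12) and Unc45b (-0.26). With trends removed they were Tln2 (-0.11), Asb2 (-0.41) and Unc45b (-0.37), and with Xist as a covariate Asb2 (-0.06) and Unc45b (-0.08). TPM turned Myom2 (0.16) and Tmod1 (0.05), and rescaling without mitochondrial genes turned Unc45b (-0.0012). Without 1 mouse, log2 FC ranged from -0.10 to 0.21 for Myom2, -0.47 to 0.06 for Tcap, -0.0026 to 0.12 for Myoz2, -0.06 to 0.12 for Asb2 and -0.05 to 0.08 for Unc45b. Pair differences ranged from -0.13 to 0.14 for Pdlim3 to Pdlim5, -0.06 to 0.16 for Lmod3 to Lmod2 and -0.15 to 0.16 for Fbxo32 to Trim63. With a pseudocount of 1 the Synm to Des difference was -0.31. The cause of these moves was not tested. A permutation of 4 against 5 mice cannot go below 0.016, so adjusted p values of the pairs can rise when a mouse is left out. Over the 11 pairs and 10 fits without 1 mouse, a pair lost its call 34 times and gained one 1 time. The number of reads behind a value is unknown, which limits statements on genes near 1 FPKM such as Synm, Myom3 and sham Mybpc2.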
